A study of Danio rerio with 4 samples.

Results

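Genes of the extracellular matrix and its integrin receptors were followed in whole zebrafish embryos in which an npas4l transgene could be switched on. They were chosen by name: protein-coding genes whose symbols are those of collagens, laminin chains, fibronectins, fibrillins, fibulins, emilins, nidogens, perlecan, thrombospondins, sparc, versicans, hyaluronan link proteins and integrin chains, with at least 10 normalised reads in at least 2 of the 4 libraries. This gave 105 of the 16754 genes that reach that minimum and of the 20390 listed. By what they encode, 80 are matrix genes and 22 are integrin chain genes. The other 3 share only the start of a name and are left out of every count below: col4a3bpa and col4a3bpb encode ceramide transfer proteins, and itgb1bp1 encodes a cytoplasmic protein that binds an integrin tail. A further 21 genes matched by name but stayed under the minimum, among them nid2b, fbln5, itgb3a and itgb3b.

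The matrix is the scaffold of secreted proteins around cells. Basement membranes are its sheet-like form: laminin trimers of an alpha, a beta and a gamma chain form one network, type IV collagen forms another, and nidogens and perlecan tie them together. Fibronectin is laid down as fibrils around somites, the heart primordium and the midline, and cells hold these proteins through integrins, which pair an alpha with a beta chain. In the zebrafish embryo laminin chains are needed for the notochord, and fibronectin and its receptor for somite boundaries and for the migration of heart precursors towards the midline.

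Embryos called Cre-injected carried the transgene bns298 and had received Cre at the single-cell stage. Embryos called uninjected carried the same transgene and had received none. In bns298 a loxP-STOP-loxP cassette separates the heat-inducible hsp70l promoter, which can act in all tissues, from npas4l, which is followed by the linker GGGGGLSRS, a P2A peptide and mCherry. The product of npas4l, a bHLH-PAS factor, stands at the top of endothelial and blood development, and Cre recombinase cuts the cassette out. All embryos were raised at 28 °C, given a heat shock of 1 h at 37 °C and collected at the 6-somite stage, with 2 libraries per group. No injected embryos without the transgene were analysed here, so what the injection, the recombinase and npas4l each contribute cannot be told apart. The labels do not say whether libraries of a group are from different clutches, so the spread between these 2 libraries may be technical. The p-values and SE combine this spread, pooled over both groups, with a trend of spread over all genes. They therefore do not measure the spread of a gene by itself. In whole embryos, fewer cells of a type and less RNA per cell cannot be told apart either.

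Totals were 8933474 and 9861419 normalised reads in the Cre-injected libraries and 9093935 and 9479827 in the uninjected ones, with the values read as rounded, size-factor-scaled counts. The induced gene npas4l, which the table lists as CABZ01080135.1, had 710 and 808 normalised reads in the Cre-injected libraries, against 370 and 279 in the uninjected ones. Both Cre-injected libraries were above both uninjected ones, a log2 fold change of 1.23 ± 0.16 (SE; adjusted p = 0.00051 by limma).

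Some laminin and basement membrane linker genes, both fibronectin genes and the chains of a fibronectin receptor were higher in Cre-injected embryos, while some genes for type I, V and XXVIII collagen, thrombospondins and emilin2b were lower. Of the 80 matrix genes, 13 were higher and 10 lower at an adjusted p under 0.05 by limma, that is 16.2% and 12.5%. Over all genes tested, 6.35% were higher, 6.19% lower and 12.5% called in either direction. The 22 integrin genes had 2 higher and 2 lower (9.09% each way). The median log2 fold change was -0.04 over the matrix genes and 0.04 over the integrin genes, against -0.00 over all genes, so both medians lay near that of all genes. In 25 of the 80 matrix genes both Cre-injected libraries lay above both uninjected ones and in 32 below, where the shares over all genes are 28.0% above and 28.8% below. For 7 matrix genes the minimum of 10 was reached in only one of the groups, so a difference was built into their selection, and of these lama2 and col28a1a are among the calls.

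**Figure D1:**
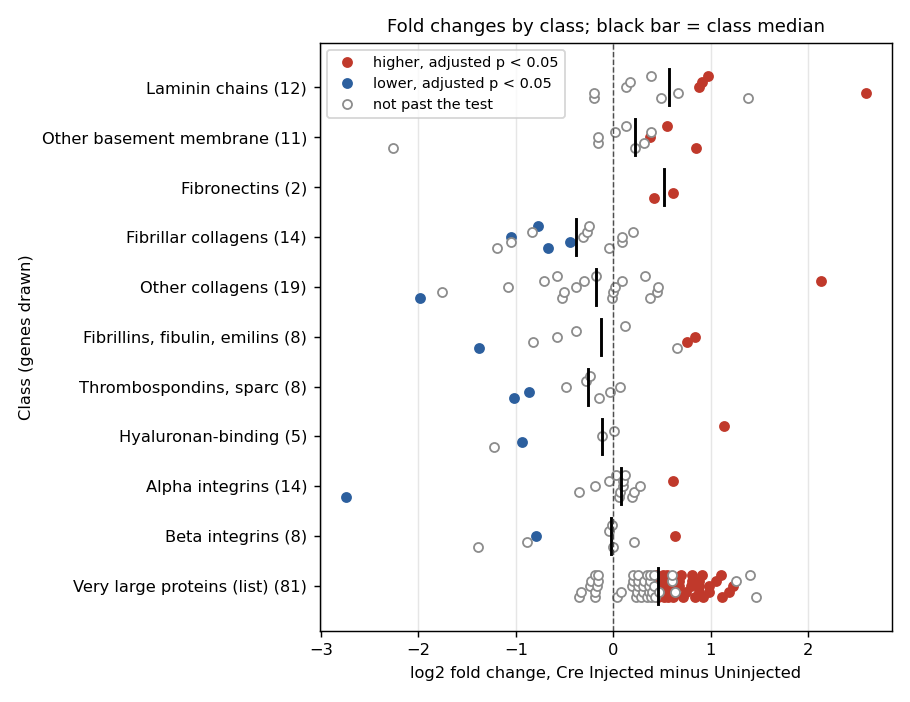
Each point is a gene, placed by its log2 fold change (Cre-injected minus uninjected, x axis) within its class (y axis, genes drawn in brackets), with filled points past adjusted p = 0.05 and a black bar at the class median. Most laminins and both fibronectins lie to the right of 0 and most fibrillar collagens to the left, and the bottom row holds 81 genes of very large proteins outside the matrix. The gene col28a1a is not drawn, since it is listed at 0 in both Cre-injected libraries.

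Many genes of very large proteins, outside the matrix and integrin genes followed here, were also higher, and these values are given for comparison with the rises below. A list of 87 names known for very large proteins, and hence long transcripts, was drawn up after the values had been seen, and 81 genes of it were tested. By limma 39 were higher and 0 lower (54 and 0 at an unadjusted p under 0.05), with a median log2 fold change of 0.46 and quartiles of 0.29 and 0.72. Higher calls fell to 28 with equal totals, 27 with equal totals after removing mitochondrial and structural RNA, and 32 with upper-quartile scaling. The median was 0.46 or 0.49 without uninjected replicate 1 or 2, and 0.32 or 0.61 without Cre-injected replicate 1 or 2. The ubiquitin ligase gene huwe1 had 9419 and 7579 normalised reads in the Cre-injected libraries, against 4750 and 4909 in the uninjected ones. The dynein heavy chain gene dync1h1 had 1450 and 951 in the Cre-injected libraries, against 518 and 512 in the uninjected ones, and the ribosome assembly gene mdn1 had 4105 and 3624 in Cre-injected and 1768 and 1787 in uninjected libraries. Between the replicates, 71 of the 81 were higher in Cre-injected replicate 1 than in replicate 2, as were 12 of the 15 matrix and integrin genes called higher. The same held for 57 of all 80 matrix genes and 16 of all 22 integrin genes, called or not, and for 8115 of the 16754 genes tested.

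Genomic span showed a smaller difference in the same direction. With protein-coding genes ordered by span and split into 5 groups of nearly equal size, the median log2 fold change was -0.10 in the shortest group and 0.08 in the longest. A difference of similar size lay within the Cre-injected pair. The median of replicate 1 minus replicate 2, in log2, was -0.11 in the shortest group and 0.09 in the longest. In the uninjected pair these medians were -0.007 and 0.004. The longest group held 57 of the 102 matrix and integrin genes, 11 of the 15 called higher and 2 of the 12 called lower. The next longest group held 29 of them, with 3 called higher and 4 lower. The shortest group by span held 3, with 1 called higher and 0 lower. Transcript lengths were not used here, and the part of length in the rises was not tested.

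Of the laminin chains, lama1, lama2, lama5 and lamc1 were higher. Of 12 chains tested, 4 were higher and 0 lower (6 and 0 at an unadjusted p under 0.05 by limma), with a median log2 fold change of 0.58. Over the 9 chains with 10 or more in all 4 libraries, 3 were higher and the median was 0.39. Together the 12 chains took 0.339% and 0.252% of all normalised reads in the Cre-injected libraries, against 0.172% and 0.17% in the uninjected ones. The gamma chain gene lamc1 (chromosome 2, 35880600 to 35979178, GRCz11), whose product is part of nearly all laminins of the embryo, had 11877 and 10766 normalised reads in the Cre-injected libraries, against 5873 and 6121 in the uninjected ones. Both Cre-injected libraries stood well above both uninjected ones, a log2 fold change of 0.92 ± 0.11 (SE) or 1.89-fold, with adjusted p = 0.000302 by limma.

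The alpha chain gene lama1 (chromosome 24, 41690545 to 41784173) had 9372 and 7189 in the Cre-injected libraries, against 4468 and 4416 in the uninjected ones, a log2 fold change of 0.89 ± 0.13 (SE; adjusted p = 0.00111 by limma). A second widely used alpha chain gene, lama5 (chromosome 23, 9567334 to 9768700), had 2976 and 2223 in Cre-injected and 1276 and 1351 in uninjected libraries, a log2 fold change of 0.97 ± 0.14 (SE; adjusted p = 0.000965 by limma). In both genes Cre-injected replicate 1 was the higher of its pair and the groups were far apart. Their beta partner gene lamb1a had 5401 and 4206 normalised reads in the Cre-injected libraries and 3557 and 3730 in the uninjected ones. These groups do not overlap either, but the log2 fold change of 0.39 ± 0.13 (SE) did not pass (adjusted p = 0.0653 by limma). It was past the threshold without Cre-injected replicate 1 (0.21) or replicate 2 (0.57), where the value in brackets, here and for other left-out libraries, is the log2 fold change in that fit.

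Of the sparse chains, lama2, the alpha chain of muscle basement membranes, was listed at 20 and 20 in the Cre-injected libraries, against 2 and 3 in the uninjected ones. Its call (6.06-fold on the scale with 1 added; adjusted p = 0.0224 by limma) rests on these few reads and ended whichever library was left out, with log2 fold changes of 2.39 to 2.81. A clone-named gene overlaps it on the same strand, at 8 and 2 normalised reads in Cre-injected and 2 and 0 in uninjected libraries. The paralog lamb1b had 39 and 19 in the Cre-injected libraries and 12 and 8 in the uninjected ones (adjusted p = 0.0936 by limma). The vascular alpha chain gene lama4 had 50 and 40 in the Cre-injected libraries and 45 and 59 in the uninjected ones, with overlapping groups (adjusted p = 0.703 by limma). The beta chain gene lamb2 had 55 and 47 in Cre-injected and 45 and 45 in uninjected libraries, and the gamma chain gene lamc3 had 17 and 16 in Cre-injected and 11 and 12 in uninjected libraries (adjusted p = 0.732 and 0.552 by limma). The calls of lamc1 and lama5 held whichever library was left out, and that of lama1 ended without uninjected replicate 2 (0.88, adjusted p = 0.0591 by limma).

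Genes for perlecan, a nidogen and collagen XVIII were higher too, and type IV collagen genes were not past the test. Of 11 genes in this class 3 were higher and 0 lower by limma (5 and 1 at an unadjusted p under 0.05), with a median log2 fold change of 0.23. Perlecan, the large heparan sulfate proteoglycan encoded by hspg2 (chromosome 23, 26543716 to 26725637), had 972 and 805 normalised reads in the Cre-injected libraries, against 446 and 539 in the uninjected ones, a log2 fold change of 0.85 ± 0.14 (SE; adjusted p = 0.00286 by limma). The nidogen gene nid1b (chromosome 11, 44548209 to 44603789), whose product bridges laminin and type IV collagen, had 2346 and 1858 in Cre-injected and 1409 and 1435 in uninjected libraries, a log2 fold change of 0.55 ± 0.13 (SE; adjusted p = 0.0142 by limma). The groups were apart in both genes.

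For the related nid2a the values were 5054 and 4653 in the Cre-injected libraries and 3841 and 3924 in the uninjected ones. They did not overlap, but the fold was small and missed the threshold (adjusted p = 0.0658 by limma). The collagen XVIII gene col18a1a, which yields endostatin in mammals, had 5662 and 6097 in Cre-injected and 4513 and 4537 in uninjected libraries, a log2 fold change of 0.38 ± 0.10 (SE; adjusted p = 0.0352 by limma). The nid1b paralog nid1a had 85 and 78 in Cre-injected and 70 and 69 in uninjected libraries (adjusted p = 0.566 by limma). For col15a1b, a relative of col18a1a, the values were 983 and 909 in Cre-injected and 1010 and 1094 in uninjected libraries (adjusted p = 0.423 by limma).

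The type IV chains form 3 pairs of neighbouring genes, and no chain passed. The most widespread pair, col4a1 and col4a2, had log2 fold changes of 0.39 ± 0.14 and 0.02 ± 0.21 (SE; adjusted p = 0.088 and 0.959 by limma). For col4a1 the values were 594 and 505 in the Cre-injected libraries and 413 and 425 in the uninjected ones. The divergent pair col4a6 and col4a5, 752 bases apart on chromosome 7, was listed for col4a6 at 1604 and 1721 in Cre-injected and 1423 and 1609 in uninjected libraries. For col4a5 the values were 1417 and 1478 in Cre-injected and 1511 and 1715 in uninjected libraries. The sparse col4a4 was listed at 1 and 5 in the Cre-injected libraries and 11 and 22 in the uninjected ones (adjusted p = 0.0798 by limma). Calls ended without uninjected replicate 1 for hspg2 (0.71), nid1b (0.54) and col18a1a (0.37), and without uninjected replicate 2 for nid1b (0.57) and col18a1a (0.38). The call of col18a1a also ended with totals made equal (0.0603), non-robust shrinkage (0.0552) and the replicate block (0.052), given as adjusted p by limma. Without Cre-injected replicate 2, col4a1 passed (0.50), and nid2a passed without either Cre-injected library (0.26 and 0.38).

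**Figure D2:**
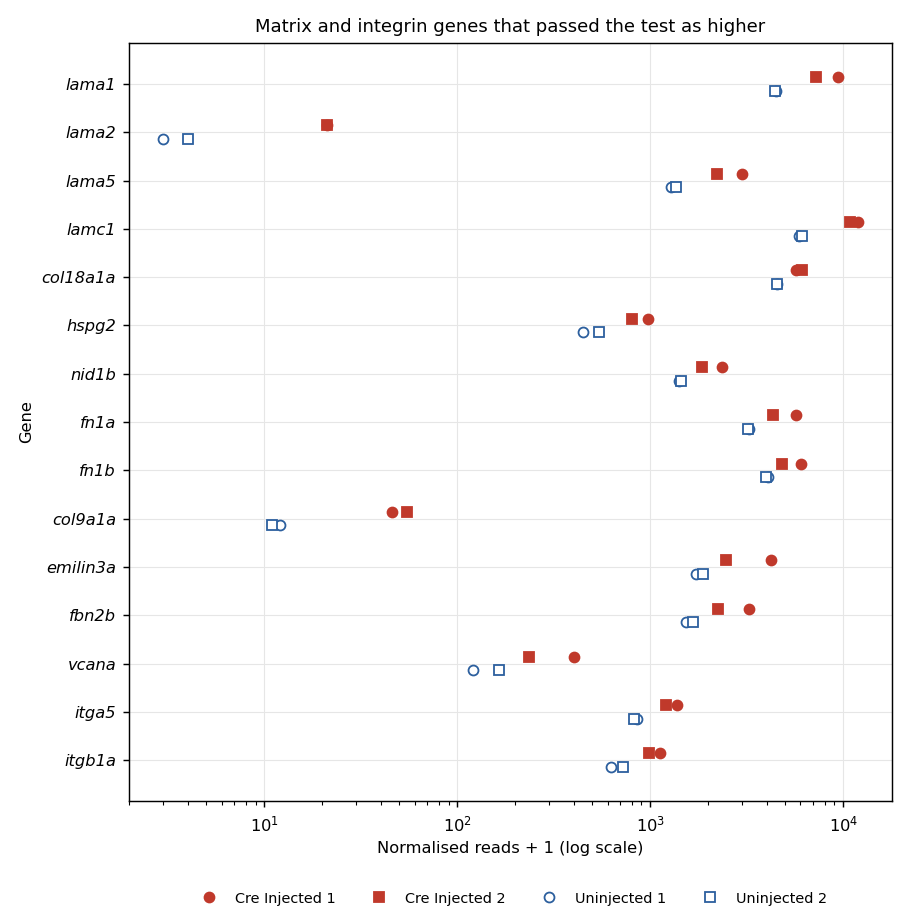
Normalised reads plus 1 (log x axis) of the 15 matrix and integrin genes called higher (y axis), with a point per library: filled red for Cre-injected and open blue for uninjected, circles for replicate 1 and squares for replicate 2. In every gene both red points lie to the right of both blue ones, from lama2 (20 and 20 in Cre-injected, 2 and 3 in uninjected libraries) to lamc1 (11877 and 10766 in Cre-injected, 5873 and 6121 in uninjected libraries).

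Both fibronectin genes and genes for both chains of the integrin that assembles fibronectin into fibrils were higher. For fn1a (chromosome 9, 15362300 to 15424639) the values were 5681 and 4296 normalised reads in the Cre-injected libraries, against 3233 and 3208 in the uninjected ones, a log2 fold change of 0.62 ± 0.13 (SE; adjusted p = 0.00987 by limma). Its paralog fn1b (chromosome 1, 5504128 to 5543065) had 6012 and 4818 in the Cre-injected libraries and 4091 and 3971 in the uninjected ones. Cre-injected replicate 1 was the higher library in both paralogs. The fn1b call, at a log2 fold change of 0.42 ± 0.12 (SE; adjusted p = 0.0425 by limma), ended with upper-quartile scaling (adjusted p = 0.0657 by limma), and also with equal totals (0.087), the same after removing mitochondrial and structural RNA (0.0793) and non-robust shrinkage (0.0732). It also shares its locus with atic, a purine synthesis gene on the other strand, at 889 and 721 normalised reads in Cre-injected and 788 and 826 in uninjected libraries, and the sources used here do not say whether counting used the strand.

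Among 14 alpha chains 1 was higher and 1 lower (7.14% each way), and among 8 beta chains likewise (12.5% each way). Over all genes 6.35% were higher and 6.19% lower, so the alpha chain shares were near those of all genes. The alpha chain gene itga5 (chromosome 23, 33447625 to 33558161), whose product recognises fibronectin, had 1370 and 1200 normalised reads in the Cre-injected libraries, against 854 and 819 in the uninjected ones, a log2 fold change of 0.62 ± 0.12 (SE; adjusted p = 0.00599 by limma). Its usual partner, the beta chain gene itgb1a (chromosome 24, 1110138 to 1151483), had 1121 and 978 in Cre-injected and 627 and 721 in uninjected libraries, a log2 fold change of 0.64 ± 0.13 (SE; adjusted p = 0.00753 by limma). The groups were apart in both genes. Leaving out either uninjected library ended the calls of fn1a (0.62 and 0.61), fn1b (0.44 and 0.40), itga5 (0.65 and 0.59) and itgb1a (0.54 and 0.74), with values given without replicate 1 and then without replicate 2. Integrin chains called higher then numbered 0 by limma, with 2 at an unadjusted p under 0.05 in either fit.

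The alpha V gene itgav, which also encodes a fibronectin-binding chain, had 972 and 881 in the Cre-injected libraries and 944 and 834 in the uninjected ones, with overlapping groups (adjusted p = 0.786 by limma). The paralog itgb1b had 1142 and 1031 in Cre-injected and 916 and 961 in uninjected libraries, apart but close (log2 fold change of 0.21; adjusted p = 0.263 by limma). It was past the threshold without Cre-injected replicate 2 (0.28). The laminin-binding alpha chain genes itga6a, itga6b and itga3b showed no call. For itga6a the values were 516 and 411 in the Cre-injected libraries and 494 and 454 in the uninjected ones, and for itga6b 466 and 518 in Cre-injected and 417 and 430 in uninjected libraries (adjusted p = 0.888 and 0.324 by limma). For itga3b they were 569 and 438 in Cre-injected and 457 and 497 in uninjected libraries (adjusted p = 0.81 by limma). Nor did itga4 (-0.19 ± 0.24), itga8 (0.20 ± 0.50), itga3a (0.13 ± 0.63) or itgb5 (-0.00 ± 0.16) pass, given as log2 fold changes with SE.

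Both lower integrin genes lie close to a relative. The collagen-binding type alpha chain gene itga2.3 (chromosome 10, 8869468 to 8884205) had 7 and 23 normalised reads in the Cre-injected libraries, against 92 and 92 in the uninjected ones, a log2 fold change of -2.75 ± 0.46 (SE; adjusted p = 0.0026 by limma). The Cre-injected libraries differed from each other severalfold, and the log2 fold change was -1.95 without replicate 1 and -3.54 without replicate 2 of that group, with the call kept in both. Its neighbour itga2.2, 1563 bases downstream on the same strand, had 41 and 53 in Cre-injected and 26 and 72 in uninjected libraries with overlapping groups. The beta chain gene itgb1b.1, 35658 bases from itgb1b, had 125 and 77 in the Cre-injected libraries and 166 and 176 in the uninjected ones, a log2 fold change of -0.79 ± 0.24 (SE; adjusted p = 0.0467 by limma). This call ended without uninjected replicate 1 (-0.84), uninjected replicate 2 (-0.75) or Cre-injected replicate 2 (-0.45). In adjusted p by limma it also ended with equal totals (0.052), the same after removing mitochondrial and structural RNA (0.0519) and non-robust shrinkage (0.0749). The sources used here do not say how reads shared between such copies were counted.

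The beta 4 chain gene itgb4, which anchors epidermal cells to laminin, was listed at 45 and 85 in the Cre-injected libraries and 119 and 112 in the uninjected ones (log2 fold change of -0.89; adjusted p = 0.0645 by limma). It passed as lower with equal totals (adjusted p = 0.0463), without the level filter (adjusted p = 0.0459), with the replicate block (adjusted p = 0.0316) and without Cre-injected replicate 2 (adjusted p = 0.000265), all by limma.

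Among fibrillar collagens, the rope-forming collagens of connective tissue, col1a2, col1a1a, col5a2a and col5a1 were lower. Of 14 genes 4 were lower and 0 higher by limma (5 and 0 at an unadjusted p under 0.05), with a median log2 fold change of -0.38. However, 2 of the 14 reached the minimum in uninjected embryos alone. Over the 11 with 10 or more in all 4 libraries the median was -0.31. The type I gene col1a2 (chromosome 19, 40983221 to 41002980) had 58 and 61 normalised reads in the Cre-injected libraries, against 122 and 126 in the uninjected ones, a log2 fold change of -1.05 ± 0.22 (SE; adjusted p = 0.00955 by limma). For its partner chain col1a1a the values were 95 and 112 in Cre-injected and 161 and 168 in uninjected libraries, a log2 fold change of -0.67 ± 0.19 (SE; adjusted p = 0.0434 by limma). The second alpha 1 copy, col1a1b, had 35 and 28 in the Cre-injected libraries and 58 and 55 in the uninjected ones (adjusted p = 0.0965 by limma). In all 3 type I genes both Cre-injected libraries were below both uninjected ones.

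Of 4 genes for type V collagen, which nucleates type I fibrils, col5a2a and col5a1 were lower. For col5a2a (chromosome 9, 42653188 to 42696408) the values were 259 and 233 in the Cre-injected libraries, against 406 and 435 in the uninjected ones, a log2 fold change of -0.77 ± 0.15 (SE; adjusted p = 0.00537 by limma). For col5a1 they were 406 and 401 in Cre-injected and 569 and 529 in uninjected libraries, a log2 fold change of -0.44 ± 0.13 (SE; adjusted p = 0.0456 by limma). The others did not pass: col5a3a had 157 and 87 in Cre-injected and 135 and 157 in uninjected libraries with overlapping groups, and col5a3b, at the minimum in uninjected embryos alone, had 5 and 5 in Cre-injected and 10 and 13 in uninjected libraries (adjusted p = 0.463 and 0.316 by limma). Without uninjected replicate 1 or 2 all 4 calls ended: col1a2 (-1.07 and -1.02), col1a1a (-0.70 and -0.64), col5a2a (-0.82 and -0.72) and col5a1 (-0.39 and -0.49). The col1a1a call also ended without Cre-injected replicate 1 (-0.55) and with non-robust shrinkage (adjusted p = 0.0561 by limma). That of col5a1 ended with equal totals (adjusted p = 0.0716 by limma), non-robust shrinkage (0.0552) and the replicate block (0.0561). An antisense gene listed at no more than 7 normalised reads in any library overlaps col1a1a.

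The genes col2a1a, col2a1b, col8a1a, col11a1a and col27a1b, of collagens known from the notochord and its sheath, showed no call in the fit of all 4 libraries. The type II gene col2a1a had 2308 and 1686 normalised reads in the Cre-injected libraries and 1764 and 1939 in the uninjected ones, and col2a1b had 536 and 486 in Cre-injected and 548 and 506 in uninjected libraries, both with overlapping groups (adjusted p = 0.712 and 0.857 by limma). For col8a1a, needed for notochord morphogenesis, the values were 1316 and 883 in Cre-injected and 1008 and 1116 in uninjected libraries (adjusted p = 0.944 by limma). The type XI gene col11a1a had 1521 and 1256 in Cre-injected and 1182 and 1221 in uninjected libraries (adjusted p = 0.308 by limma). In each of col2a1a, col8a1a and col11a1a replicate 1 of the Cre-injected pair was the higher, and without Cre-injected replicate 2 all 3 passed as higher (0.32, 0.31 and 0.34). The sparse col27a1b was listed at 12 and 10 in Cre-injected and 18 and 10 in uninjected libraries.

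The other 20 collagens had 1 higher and 2 lower. The type XXVIII gene col28a2a (chromosome 9, 48297412 to 48371379), which encodes a collagen with von Willebrand factor A domains, was lower, at 50 and 61 normalised reads in the Cre-injected libraries, against 220 and 222 in the uninjected ones. The log2 fold change was -1.98 ± 0.21 (SE), or 0.253-fold, with adjusted p = 0.000143 by limma, and the call held whichever library was left out. Its relative col28a1a (chromosome 19, 25476228 to 25512695) was listed at 0 in both Cre-injected libraries and at 18 and 17 in the uninjected ones (adjusted p = 0.0121 by limma). That call rests on few reads and ended without uninjected replicate 1 (adjusted p = 0.266 by limma) or replicate 2 (0.224).

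The type IX gene col9a1a (chromosome 11, 11274940 to 11301357), a collagen that decorates type II fibrils, went the other way. It had 45 and 54 normalised reads in the Cre-injected libraries, against 11 and 10 in the uninjected ones, a log2 fold change of 2.13 ± 0.39 (SE; adjusted p = 0.00431 by limma), and passed whichever library was left out. No call was made for its partners: col9a1b had 69 and 103 in Cre-injected and 119 and 60 in uninjected libraries, col9a2 99 and 112 in Cre-injected and 143 and 161 in uninjected libraries, and col9a3 56 and 53 in Cre-injected and 70 and 65 in uninjected libraries, with adjusted p of 0.997, 0.106 and 0.472 by limma. The anchoring-fibril gene col7a1 had 103 and 75 in the Cre-injected libraries and 154 and 135 in the uninjected ones and missed the threshold (log2 fold change of -0.71; adjusted p = 0.0579 by limma). The gene col8a2, known from the corneal basement membrane of mammals, at 9 and 4 in Cre-injected and 25 and 21 in uninjected libraries, did so as well (adjusted p = 0.0606 by limma). Of all 41 collagens tested, basement membrane collagens included, 2 were higher and 6 lower, with a median log2 fold change of -0.25. However, 6 of the 41 reached the minimum of 10 in uninjected embryos alone, so a lower value was built into their selection. Over the 34 with 10 or more in all 4 libraries, 2 were higher and 5 lower, and the median was -0.15.

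**Figure D3:**
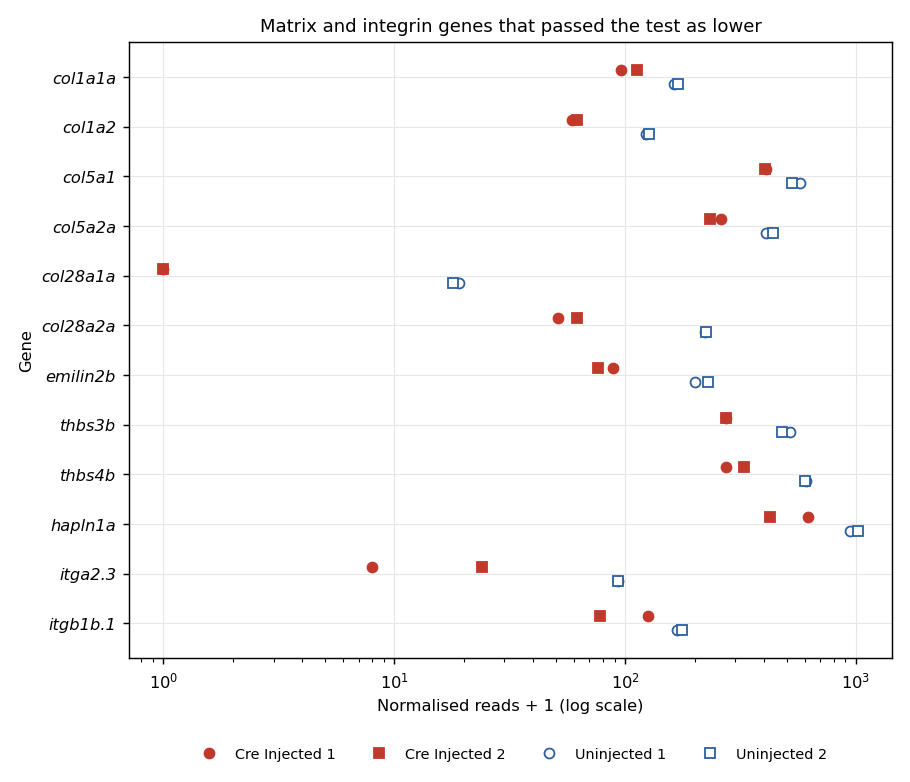
Normalised reads plus 1 (log x axis) of the 12 matrix and integrin genes called lower (y axis), drawn as filled red points for the Cre-injected and open blue points for the uninjected libraries, circles for replicate 1 and squares for replicate 2. Both red points lie to the left of both blue ones in each gene, and col28a1a lies at 1 because it was listed at 0 in both Cre-injected libraries.

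Microfibril genes split by family member. The fibrillin gene fbn2b (chromosome 22, 4524367 to 4649238), needed for the fin fold and notochord in zebrafish, had 3235 and 2244 normalised reads in the Cre-injected libraries, against 1521 and 1662 in the uninjected ones, a log2 fold change of 0.76 ± 0.15 (SE; adjusted p = 0.00732 by limma). The groups were apart, and replicate 1 was the higher of the Cre-injected pair. Its paralog fbn2a was listed at 36 and 8 in the Cre-injected libraries and 36 and 19 in the uninjected ones, and the fibulin gene fbln2 at 156 and 100 in Cre-injected and 100 and 132 in uninjected libraries, both with overlap.

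Emilins are elastic-fibre glycoproteins that bind integrins. The notochord gene emilin3a (chromosome 8, 22962690 to 22965916) had 4206 and 2477 normalised reads in the Cre-injected libraries, against 1725 and 1876 in the uninjected ones, a log2 fold change of 0.84 ± 0.20 (SE; adjusted p = 0.0252 by limma). The gene emilin2b (chromosome 7, 71664624 to 71687849) had 88 and 75 in Cre-injected and 199 and 227 in uninjected libraries, a log2 fold change of -1.38 ± 0.20 (SE; adjusted p = 0.00106 by limma), and its call held whichever library was left out. The other emilins missed the threshold: emilin2a had 180 and 139 in Cre-injected and 85 and 118 in uninjected libraries, emilin1a 46 and 51 in Cre-injected and 95 and 79 in uninjected libraries, and emilin1b 280 and 268 in Cre-injected and 350 and 364 in uninjected libraries, with adjusted p of 0.0804, 0.0535 and 0.106 by limma. Without uninjected replicate 1 or 2 the calls of fbn2b (0.70 and 0.82) and emilin3a (0.78 and 0.90) ended, and that of emilin3a also without the level filter (adjusted p = 0.0642 by limma). The 12 notochord markers tested had 0 higher and 1 lower by limma (3 and 1 at an unadjusted p under 0.05). These shares are 0% and 8.33%, against 6.35% and 6.19% over all genes. Their sums were 3976 and 3337 normalised reads in the Cre-injected libraries and 3613 and 3382 in the uninjected ones. Their median log2 fold change was 0.09, and -0.07 or 0.26 without Cre-injected replicate 1 or 2. The part of the notochord in the emilin3a and fbn2b values was not tested.

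Of the thrombospondins, thbs4b and thbs3b, which encode subunits of pentamers that bind collagens, were lower. The tendon-associated gene thbs4b (chromosome 21, 5129513 to 5162687) had 272 and 325 normalised reads in the Cre-injected libraries, against 606 and 602 in the uninjected ones, a log2 fold change of -1.02 ± 0.14 (SE; adjusted p = 0.000891 by limma), and passed whichever library was left out. For thbs3b (chromosome 19, 24419693 to 24443867) the values were 272 and 273 in Cre-injected and 518 and 478 in uninjected libraries, a log2 fold change of -0.87 ± 0.14 (SE; adjusted p = 0.0021 by limma), and the call ended without uninjected replicate 1 (-0.81). Replicates of each group were close in both genes and the groups were far apart. The paralogs thbs4a, at 24 and 6 in the Cre-injected libraries and 15 and 9 in the uninjected ones, and thbs3a, at 41 and 35 in Cre-injected and 38 and 56 in uninjected libraries, overlapped between groups. The trimeric thbs1b had 342 and 292 in Cre-injected and 347 and 354 in uninjected libraries (adjusted p = 0.548 by limma). No thrombospondin or sparc gene of the 8 tested was higher by limma (0 at an unadjusted p under 0.05). The collagen-binding gene sparc had 518 and 484 in the Cre-injected libraries and 593 and 590 in the uninjected ones, apart by a small margin (log2 fold change of -0.24; adjusted p = 0.237 by limma).

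Among hyaluronan-binding genes a pair of neighbours moved in opposite directions. Versican is a large proteoglycan that binds hyaluronan, and link proteins clamp such proteoglycans to the hyaluronan chain. The versican gene vcana (chromosome 5, 46424437 to 46486028, plus strand) had 401 and 235 normalised reads in the Cre-injected libraries, against 119 and 163 in the uninjected ones, a log2 fold change of 1.13 ± 0.24 (SE; adjusted p = 0.0104 by limma). The link protein gene hapln1a (chromosome 5, 46490622 to 46505702, minus strand) ends 4593 bases from the end of vcana and had 619 and 421 in Cre-injected and 937 and 1016 in uninjected libraries, a log2 fold change of -0.93 ± 0.17 (SE; adjusted p = 0.00381 by limma). In both genes the groups were apart, and Cre-injected replicate 1 was the higher of its pair.

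The second such pair, vcanb and hapln1b on chromosome 10, lies 6032 bases apart in the same arrangement and showed no call. For vcanb the values were 17 and 18 in the Cre-injected libraries and 15 and 20 in the uninjected ones, and for hapln1b 798 and 736 in Cre-injected and 881 and 783 in uninjected libraries (adjusted p = 0.99 and 0.578 by limma). The vcana call ended without uninjected replicate 1 (0.91) and the hapln1a call without uninjected replicate 2 (-0.87).

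Genes that process, bind or remodel the matrix showed changes in both directions. The share called was 23.3% for processing genes, 38.5% for other matrix proteins and 20% for the 10 hyaluronan genes, against 12.5% over all genes. For receptors the share was near that of all genes at 12%, and for adaptors (8.11%) and proteases (5.56%) it was below. Of 30 genes for collagen and matrix processing, 3 were higher and 4 lower, with a median log2 fold change of -0.10. These calls numbered 1 higher and 3 lower with equal totals or non-robust shrinkage, and 1 and 5 with upper-quartile scaling. With equal totals after removing mitochondrial and structural RNA they numbered 1 and 4. The collagen chaperone gene serpinh1b, which encodes the heat-inducible Hsp47, had 18605 and 19455 normalised reads in the Cre-injected libraries, against 13636 and 12053 in the uninjected ones, a log2 fold change of 0.57 ± 0.11 (SE; adjusted p = 0.00585 by limma). The procollagen export gene mia3 (0.37) and the procollagen proteinase gene tll1 (0.47) were also higher on the log2 scale. Some genes for enzymes that modify procollagen in the endoplasmic reticulum were lower: the prolyl hydroxylase subunit genes p4ha1a (-0.47) and p4hb (-0.35), the prolyl isomerase gene ppib (-0.76) and the lysyl hydroxylase gene plod3, listed as wu:fb72h05 (-0.59).

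Of 39 other matrix protein genes 6 were higher and 9 lower. Of the lower calls, vtna, MFAP4 and lum reached the minimum of 10 in uninjected embryos alone, so a difference was built into their selection. Among the higher ones were the basement membrane gene fras1, at 1505 and 1111 normalised reads in the Cre-injected libraries, against 782 and 777 in the uninjected ones, and the large hemicentin gene hmcn2, at 1604 and 967 in Cre-injected and 600 and 782 in uninjected libraries. Another entry named hmcn2 overlaps it on the same strand and was not called (adjusted p = 0.688 by limma). It had 54 and 41 in Cre-injected and 43 and 38 in uninjected libraries. The endothelial matrix gene mmrn2b was higher by a log2 fold change of 2.50 ± 0.29 (SE; adjusted p = 0.00067 by limma), and the milk-fat-globule gene mfge8b by 0.59. The periostin gene postnb had 102 and 141 in Cre-injected and 310 and 344 in uninjected libraries, a log2 fold change of -1.44 ± 0.19 (SE; adjusted p = 0.00067 by limma). The gene vtna, for vitronectin, a plasma protein that also binds integrins, was listed at 5 and 2 in Cre-injected and 42 and 51 in uninjected libraries. The laminin-binding gene tinagl1 (-0.98) was lower as well, and MFAP4 was listed at 1 and 3 in Cre-injected and 35 and 18 in uninjected libraries.

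Integrin-linked adaptors and kinases were mostly not past the test. Of 37 genes 2 were higher and 1 lower, or 8.11% called. The talin gene tln1, whose large product links integrins to actin, had 1419 and 1120 normalised reads in the Cre-injected libraries, against 758 and 741 in the uninjected ones, a log2 fold change of 0.75 ± 0.13 (SE; adjusted p = 0.00365 by limma). The filamin gene flna (0.35; adjusted p = 0.0486 by limma) was higher and the alpha-actinin gene actn1 (-0.57) lower on the log2 scale. Higher adaptor calls numbered 1 with equal totals, with or without mitochondrial and structural RNA, and with upper-quartile scaling. They also numbered 1 with non-robust shrinkage and with the replicate block, where 2 adaptors were lower. Of 25 non-integrin matrix receptors and partners 12% were called: cspg4ba, listed as si:dkey-193c22.2 (0.74), was higher, and the tetraspanin gene cd81a (-0.62) and the scavenger receptor gene cd36 (-0.71) were lower. Of 10 genes for hyaluronan synthesis and breakdown, tnfaip6 (1.26) and hyal2a (1.11) were higher and 0 lower by limma (2 at an unadjusted p under 0.05). These hyaluronan calls numbered 0 higher with non-robust shrinkage (2 at an unadjusted p under 0.05 by limma) and 1 with upper-quartile scaling, with equal totals after removing mitochondrial and structural RNA, or without Cre-injected replicate 2. Of 36 proteases and inhibitors 5.56% were called, with adam8a (1.02) higher and adam19b (-1.51) lower. Without uninjected replicate 1 the higher and lower calls by limma numbered 2 and 2 for other matrix proteins, but 0 and 0 for processing genes (4 and 3 at an unadjusted p under 0.05), adaptors (3 and 3), receptors (2 and 2) and proteases (1 and 1). They were 1 and 0 for hyaluronan genes in that fit (1 and 0 unadjusted). Without uninjected replicate 2 they numbered 2 and 1 for other matrix proteins, and 0 and 0 by limma for processing genes (2 and 4 at an unadjusted p under 0.05), adaptors (1 and 2), receptors (1 and 2) and hyaluronan genes (3 and 0). For proteases they were 1 and 0 in that fit (5 and 1 unadjusted).

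Markers of tissues that make these matrices moved to different extents. Over all genes 6.35% were higher and 6.19% lower. The shares higher and lower were 9.52% and 33.3% for epidermis, 5.88% and 11.8% for somite and 0% and 25% for neural crest markers. They were 17.4% and 0% for endothelial, 0% and 28.6% for hatching gland and 13.3% and 46.7% for yolk syncytial layer markers. Of 21 epidermis markers 2 were higher and 7 lower, and their summed level was 197083 and 245254 normalised reads in the Cre-injected libraries, against 305879 and 287789 in the uninjected ones. The keratin gene krt4 had 57982 and 66332 in Cre-injected and 104183 and 101126 in uninjected libraries, and tp63, the regulator of basal epidermis, 584 and 598 in Cre-injected and 900 and 996 in uninjected libraries. The 2 higher markers were ppl and evpla, which encode plakins. Of 17 somite markers 1 was higher and 2 lower, with sums of 10032 and 8936 in Cre-injected and 9405 and 9432 in uninjected libraries. Of 12 neural crest markers 0 were higher and 3 lower by limma (1 and 6 at an unadjusted p under 0.05), with sums of 7047 and 7306 in Cre-injected and 8236 and 8658 in uninjected libraries. Of 23 endothelial markers 4 were higher and 0 lower by limma (5 and 4 at an unadjusted p under 0.05), with sums of 3736 and 3732 in Cre-injected and 3006 and 2912 in uninjected libraries. The median log2 fold change of these 23 was -0.255, however. In 11 of them both Cre-injected libraries lay below both uninjected ones, and in 7 above, where the shares over all genes are 28.8% below and 28.0% above. Hatching gland markers had 2 lower of 7 and summed to 2939 and 2360 in Cre-injected and 3933 and 3885 in uninjected libraries. Yolk syncytial layer markers had 2 higher and 7 lower of 15, while their sums were 138160 and 112967 in Cre-injected and 113370 and 115569 in uninjected libraries. Of these lower calls, apoa4a reached the minimum in uninjected embryos alone. These counts changed with the libraries used. Epidermis had 0 higher and 0 lower by limma with either uninjected library left out, where an unadjusted p under 0.05 gave 2 and 8 without replicate 1 and 2 and 7 without replicate 2, and 4 lower with non-robust shrinkage. Neural crest had 0 lower by limma in both of those leave-one-out fits (3 and 2 at an unadjusted p under 0.05) and 1 with equal totals. Without uninjected replicate 1 and then replicate 2, higher endothelial calls numbered 2 and 3, lower hatching gland calls 1 and 0 (2 and 3 at an unadjusted p under 0.05 by limma), lower yolk syncytial layer calls 4 and 4, and lower somite calls 1 and 1. No marker of any list was at 0 in both libraries of a group, and the part of these tissues in the collagen and laminin values was not tested.

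Most calls depended on having both uninjected libraries. Without uninjected replicate 1 or 2, only 9 or 10 of the 27 calls were kept, and all 27 genes kept their direction in both fits. Without Cre-injected replicate 1 or 2, 25 of the 27 were kept in either fit and 10 or 12 further genes were gained. Over all genes the higher and lower calls numbered 279 and 218 without uninjected replicate 1, and 228 and 210 without uninjected replicate 2. Without Cre-injected replicate 1 they were 2064 and 1871, and without Cre-injected replicate 2 they were 1519 and 1738, where the fit of all libraries had 1064 and 1037. Where a group is down to a lone library, the spread comes from the other group and is assumed to hold for both. The groups of all 27 called genes do not overlap, so leaving out a library could not change a direction. The kept directions are therefore no evidence for the calls. The 7 genes called whichever library was left out were lamc1, lama5, col9a1a, thbs4b, emilin2b, col28a2a and itga2.3.

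**Figure D4:**
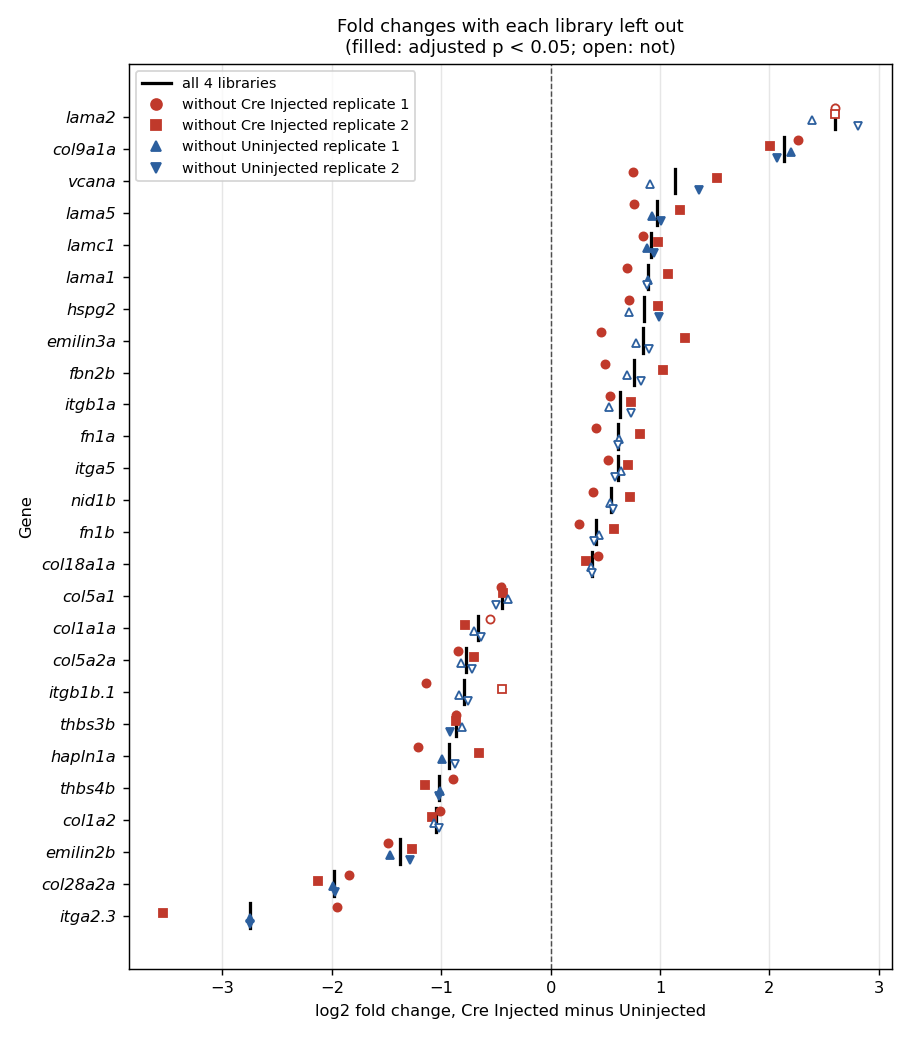
Log2 fold changes (x axis, Cre-injected minus uninjected) of 26 of the 27 called genes (y axis) in the fit of all 4 libraries (black bar) and with each library left out (symbols, filled where adjusted p by limma was under 0.05). Symbols stay on one side of 0 for every gene, as they must where the groups do not overlap. Most blue triangles, which stand for fits without an uninjected library, are open. The gene col28a1a, listed at 0 in one group, is not drawn.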

How the data were processed

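Total RNA (10 ng per library) from whole embryos was made into stranded libraries and read in single-end runs of 75 bases, per the labels' protocols. The authors deposited whole numbers per gene, entered here as a score because their unit is not given. Skipped and overfilled whole numbers point to read counts scaled by size factors and then rounded. The submitters' processing notes name danRer11, GRCz11, STAR 2.6.0c, DESeq2 1.14.1, FastQC 0.11.8, featureCounts 1.6.0 and Trimmomatic 0.36 and give no roles. Positions are those of the table.

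Because the values are normalised, no count model was used. limma 3.58.1 (R 4.3.3) with trend and robust shrinkage was fitted to log2(value + 1) of the 16754 genes with 2 or more libraries at 10 or above, and Benjamini-Hochberg adjusted p under 0.05 over all of them was the threshold. Fold changes are on that scale, which shrinks those of sparse genes. The steps were tested on simulated counts with the same dispersion for every gene, so that test does not show how they perform on the spread of these libraries. Depth is unknown beyond the column totals, and levels are not compared between genes, since transcript lengths were not used here.

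The genes, lists and tests were chosen with earlier results of these data known. All 27 called matrix and integrin genes, a fixed set of textbook ones and, of each further pathway list, up to 4 called genes per direction with the smallest p were named; others (such as emilin1b, col1a1b, col7a1, col8a2, fbn2a, thbs3a, thbs4a, itga2.2) were named beside relatives or after their values were seen. Lists were matched by symbol, then by tables of gene names. Alternatives were leaving out each library, a replicate block, non-robust shrinkage and other scalings, filters and pseudocounts. Sequences were not used here. Figures were drawn with matplotlib 3.10.9.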

Additional observations from a re-analysis of the deposited data

How the results depend on the processing

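All 27 calls kept their direction under each of the 13 alternatives in which they were tested. Their groups do not overlap, so a direction could have changed only under the other scalings. The number of matrix and integrin genes called lay between 22 and 30 under the other scalings, filters, pseudocounts and shrinkage, where the fit as reported had 27. Lower integrin genes numbered 1, against 2, with a minimum of 10 in all 4 libraries, which leaves out itga2.3. They also numbered 1 with totals made equal after removing mitochondrial and structural RNA and with non-robust shrinkage, where the call of itgb1b.1 ended. Leaving out a library in turn gave 4 to 20 matrix genes higher and 4 to 16 lower, 0 to 3 integrin genes higher and 1 to 3 lower, and 228 to 2064 of all genes higher and 210 to 1871 lower. It moved the median log2 fold change between -0.19 and 0.036 for matrix genes and between -0.10 and 0.13 for integrin genes. Integrin genes higher numbered 0 by limma with either uninjected library left out, and 2 at an unadjusted p under 0.05. Replicate numbers are shared between groups but nothing in the labels pairs them, and replicate differences of the groups correlated at -0.03 over 16754 genes. Mitochondrial rRNA, however, took 12% and 12.3% of normalised reads in replicate 1 of the Cre-injected and uninjected groups, and 16.1% and 16.4% in replicate 2. Whether libraries of equal number were handled together is not given. With the replicate block 12 matrix genes were higher and 10 lower, 2 integrin genes higher and 3 lower, and 1132 of all genes higher and 1121 lower. Upper-quartile scaling moved the split over all genes to 900 higher and 1140 lower. For genes listed at no more than 20 normalised reads in any library, such as lama2 and col28a1a, a few reads make up the difference.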
